A study of Rattus norvegicus with 6 samples.

Results

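The complement system and the coagulation cascade are chains of serine proteases and their cofactors in blood plasma, and most of their proteins are made and secreted by the hepatocytes of the liver. Of 45 listed genes, 39 were measured, namely 17 of complement, 20 of coagulation and fibrinolysis, and 2 whose products act in both, Serping1 and Vtn. A gene was taken where the annotation of the array gave its symbol alone for a probe set, which gave 52 probe sets of the 31042 tested, and 39 genes of 14217. The 6 listed genes left out were F7, F11 and F13b, which had no probe set, Kng1, whose probe set is shared with other kininogen genes, and C2 and Cfb, whose 4 probe sets carry both names.

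Liver RNA was hybridised to an Affymetrix rat array in 3 groups of 2 arrays. The groups were BBDR.lyp/lyp rats post-hyperglycemia (labelled 55 days old), BBDR.lyp/lyp rats pre-hyperglycemia (50 days) and BBDR.+/+ rats (55 days). All carry the diabetes-resistant BioBreeding background. The lyp/lyp rats carry 2 copies of the lymphopenia mutation, introgressed with its chromosomal region from the diabetes-prone strain, and go on to spontaneous diabetes, while BBDR.+/+ rats lack the mutation and stay free of diabetes unless it is induced. The study asked what changes in the liver around the onset of hyperglycemia. Pre-hyperglycemia and BBDR.+/+ rats differed in both genotype and age, which cannot be told apart in that comparison. Post- and pre-hyperglycemia rats differed in both hyperglycemia and labelled age. Post-hyperglycemia and BBDR.+/+ rats differed in both hyperglycemia and genotype. These cannot be told apart either. The labels do not say whether the 2 arrays of a group came from different rats, so the p-values measure the spread between arrays only.

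Complement works as an amplifying chain. Lectins or antibodies that bind a surface switch on starter proteases, which cut C4 and C2. Later enzymes of the chain split C3 and then C5, and C5b gathers C6, C7, C8 and C9 into a pore in the target membrane. Coagulation ends in thrombin, which turns fibrinogen into fibrin, and plasmin later dissolves the clot. In the rat, fibrinogen and α2-macroglobulin (A2m) are classical acute phase proteins, whose hepatic synthesis rises under interleukin-6 through STAT3.

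Signals are given on a log2 scale, where a difference of 1 is a doubling, and a gene with several probe sets is represented by the brightest. Differences were tested with limma over all probe sets and called at a Benjamini-Hochberg adjusted p under 0.05. These genes had bright signals, with 28 of 39 members at a mean of 12 or above, which 319 genes in all reached. Their duplicate arrays also lay close. The median gap between the 2 arrays of a group was 0.06 for the brightest probe sets of members and 0.13 for all probe sets in post-hyperglycemia livers. It was 0.05 and 0.11 in pre-hyperglycemia livers, and 0.06 and 0.11 in BBDR.+/+ livers. The second value takes in dim probe sets, so the 2 sets are not alike in brightness. Alb, a marker of hepatocytes, had a signal of 14.60 to 14.62 on all 6 arrays.

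By the brightest probe set of each gene, C5 was the only member called in any of the 3 comparisons. It was higher in BBDR.lyp/lyp livers, both post- and pre-hyperglycemia, than in BBDR.+/+ livers. Against BBDR.+/+ livers, post-hyperglycemia livers had 1 member called higher and 0 lower of 39, where 3.52% of all genes were called. Rank product also called 1 there, where it called 1.06% of all genes. Against pre-hyperglycemia livers, 0 of 39 members were called in post-hyperglycemia livers, where 1.37% of all genes were. Without adjustment 4 members had a limma p under 0.05 there, 1 higher and 3 lower, where 13.4% of all genes did, and rank product called 0, where it called 0.858% of all genes. Between pre-hyperglycemia and BBDR.+/+ livers 1 of 39 was called, where 0.802% of all genes were, and 1 by rank product, where it called 1.21%. Over all 52 member probe sets, the dimmer ones included, 2 were called post-hyperglycemia against BBDR.+/+ livers, 1 post- against pre-hyperglycemia and 1 pre-hyperglycemia against BBDR.+/+ livers, where 5.15%, 2.18% and 0.718% of all probe sets were. These shares are near those of all genes, and they do not set the members apart.

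The promoters of 4 members are printed here, C5 because it was the member called, and the 3 fibrinogen chains because they lie side by side on chromosome 2, form 1 protein and are the members for which an acute phase element is best known. Each is the RefSeq sequence of 250 bases before to 50 after the annotated start, on GRCr8, printed along the strand of the gene. They lie at chr3:38759419-38759718 (minus strand) for C5, chr2:170671919-170672218 (plus) for Fga, chr2:170700826-170701125 (minus) for Fgb and chr2:170652833-170653132 (plus) for Fgg. Capitals mark GTTAAT, which forms each arm of the palindrome bound by the hepatocyte factor HNF1, and CTGGGAA, the acute phase element described in rat acute phase genes, each on either strand.
C5: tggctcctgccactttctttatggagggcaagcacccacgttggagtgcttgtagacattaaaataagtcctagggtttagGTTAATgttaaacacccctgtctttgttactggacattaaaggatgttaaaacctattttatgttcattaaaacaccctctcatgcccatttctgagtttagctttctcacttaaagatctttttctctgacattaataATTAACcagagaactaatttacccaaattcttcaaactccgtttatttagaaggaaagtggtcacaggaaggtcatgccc
Fga: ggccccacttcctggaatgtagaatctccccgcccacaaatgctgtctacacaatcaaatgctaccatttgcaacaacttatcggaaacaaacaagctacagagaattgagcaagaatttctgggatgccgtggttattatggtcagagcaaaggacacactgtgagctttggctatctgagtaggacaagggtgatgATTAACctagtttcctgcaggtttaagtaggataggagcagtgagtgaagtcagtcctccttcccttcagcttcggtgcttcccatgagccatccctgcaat
Fgb: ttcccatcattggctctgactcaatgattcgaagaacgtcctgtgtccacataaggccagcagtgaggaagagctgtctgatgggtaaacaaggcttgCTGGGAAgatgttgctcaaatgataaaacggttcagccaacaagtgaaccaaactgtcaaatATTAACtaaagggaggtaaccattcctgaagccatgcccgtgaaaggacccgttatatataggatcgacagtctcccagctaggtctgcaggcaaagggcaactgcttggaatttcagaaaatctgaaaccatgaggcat
Fgg: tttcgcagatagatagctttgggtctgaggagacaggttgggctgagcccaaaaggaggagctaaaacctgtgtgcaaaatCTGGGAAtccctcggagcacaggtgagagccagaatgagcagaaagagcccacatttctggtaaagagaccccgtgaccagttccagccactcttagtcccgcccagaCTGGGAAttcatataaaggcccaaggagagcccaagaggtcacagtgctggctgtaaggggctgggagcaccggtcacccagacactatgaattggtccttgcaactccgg

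C5 held 2 matches of the HNF1 arm and 0 of the acute phase element. The window of Fga held 1 match of the HNF1 arm, that of Fgb 1 of each motif, and that of Fgg 2 of the acute phase element. The HNF1 arm was found in 9 of the 29 members with a promoter in the table (31.0%) and in 7.45% of all 33469 promoters, and 0.505% of all promoters held 2 or more. The acute phase element was found in 9 of the 29 (31.0%) and in 11.3% of all promoters. The core bound by C/EBP factors, TTGCNNAA, was found in 12 of the 29 (41.4%) and in 10.6% of all promoters. The core bound by STAT factors, TTCNNNGAA, was found in 7 (24.1%) and in 8.87% of all promoters. The string TATAAA, a spelling of the TATA box, was found in 2 of the 29, C6 and Fgg (6.90%), and in 14.2% of all promoters. Both strands were searched at every position of the window, and the motifs can overlap one another. A member was counted once if any of its promoters held the motif, while all promoters were counted singly. A match is a string of letters and does not show binding.

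C5 encodes the protein whose fragments are the attractant C5a and the pore starter C5b. Its signal (probe set 1383425_at) was 12.32 and 12.44 in post-hyperglycemia livers, 12.19 and 12.16 in pre-hyperglycemia livers, and 11.61 and 11.61 in BBDR.+/+ livers. The groups did not overlap, with post-hyperglycemia arrays highest and BBDR.+/+ arrays lowest. Post-hyperglycemia livers were 1.71-fold above BBDR.+/+ livers, a log2 difference of 0.77 ± 0.10 (SE; 95% interval 0.55 to 1.0; limma adjusted p = 0.00215). Pre-hyperglycemia livers were 1.48-fold above BBDR.+/+ livers, a difference of 0.57 (0.35 to 0.80; limma adjusted p = 0.0365). The difference between post- and pre-hyperglycemia livers was 0.20, with an interval of -0.02 to 0.43 (limma adjusted p = 0.394). The call of post-hyperglycemia against BBDR.+/+ livers held whichever 1 array was left out, at 0.71 to 0.84 (limma adjusted p 0.00243 to 0.0394). That of pre-hyperglycemia against BBDR.+/+ livers was lost without either pre-hyperglycemia array (0.56 and 0.58) or either BBDR.+/+ array (0.57 each), with limma adjusted p from 0.000647 to 0.288 over all 15 limma alternatives.

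Some markers of other liver cells moved in the same comparisons as C5. In post- against BBDR.+/+ livers, 3 of 5 Kupffer cell markers measured, 1 of 5 endothelial markers and 2 of 4 neutrophil and monocyte markers were called higher, and 1 of 7 hepatocyte markers lower. The share of all genes called in that comparison was 3.52%. In pre-hyperglycemia against BBDR.+/+ livers, 0 of 5 Kupffer cell, 0 of 5 endothelial and 2 of 4 neutrophil and monocyte markers were called higher, and 0 of 7 hepatocyte markers lower. The share of all genes called in this comparison was 0.802%. Of the other lists, 1 of 6 stellate cell markers (Col1a1, 0.60, limma adjusted p = 0.0284) and 1 of 4 erythroid markers (Alas2, 0.56, limma adjusted p = 0.0352) were called higher there, and each call was lost without 4 of the 6 arrays. The stellate cell markers were split there, with a positive difference for 3 and a negative one for 3. The 5 endothelial and the 5 Kupffer cell markers were all higher without overlap in that comparison, where 28.3% of all genes were. A limma p under 0.05 before adjustment was found for 4 of the 5 on each of these lists, and for 12.2% of all genes. The mean endothelial marker signal was 8.91 on both post-hyperglycemia arrays, 8.92 to 9.02 on pre-hyperglycemia arrays and 8.59 to 8.70 on BBDR.+/+ arrays. The mean Kupffer cell marker signal was 10.08 to 10.17 on post-hyperglycemia arrays, 10.02 on both pre-hyperglycemia arrays and 9.69 to 9.76 on BBDR.+/+ arrays. Of the 4 neutrophil and monocyte markers, the 2 called were S100a8 (1.29 post- and 1.21 pre-hyperglycemia against BBDR.+/+) and S100a9 (1.46 and 1.66). The other 2, Ncf1 (-0.15 and -0.13) and Itgam (-0.13 and -0.02), had negative differences. The mean neutrophil and monocyte marker signal was 5.83 to 5.84 on post-hyperglycemia arrays, 5.78 to 6.03 on pre-hyperglycemia arrays and 5.20 to 5.24 on BBDR.+/+ arrays. That of hepatocyte markers was 13.12 to 13.16 on post-hyperglycemia arrays, 13.17 to 13.19 on pre-hyperglycemia arrays and 13.27 to 13.28 on BBDR.+/+ arrays. Without Tat, the hepatocyte marker called lower post-hyperglycemia against BBDR.+/+ (-0.88), the mean of the other 6 was 13.53 to 13.55 on post-hyperglycemia arrays, 13.49 to 13.53 on pre-hyperglycemia arrays and 13.53 to 13.56 on BBDR.+/+ arrays, and the post-hyperglycemia arrays overlapped both other groups. The 3′ to 5′ difference of the beta-actin controls, a measure of how whole the labelled RNA was, averaged 2.07 ± 0.05 on post-hyperglycemia arrays, 1.42 ± 0.14 on pre-hyperglycemia arrays and 1.24 ± 0.17 on BBDR.+/+ arrays (SD, n = 2 each). With that measure and the like one of GAPDH averaged as a covariate, the C5 difference was 0.79 post-hyperglycemia (limma adjusted p = 0.74) and 0.57 pre-hyperglycemia (limma adjusted p = 0.0918) against BBDR.+/+ livers. Post-hyperglycemia arrays lay above the other 4 on both measures. They had 2.04 to 2.11 for beta-actin and 1.33 to 1.37 for GAPDH, where the others reached 1.51 and 0.72. The post-hyperglycemia group and RNA quality therefore cannot be told apart, with or without the covariate. This fit left 2 residual degrees of freedom. Post-hyperglycemia against either other group it called 0 of all probe sets, where the limma p was under 0.05 without adjustment for 2171 against BBDR.+/+ and for 2186 against pre-hyperglycemia livers. Pre-hyperglycemia against BBDR.+/+ the same fit called 115 of all probe sets, and C5 was not among them. The part of other cells in the C5 difference was not tested, and in whole liver more cells of a type and more RNA per cell cannot be told apart.

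**Figure D1:**
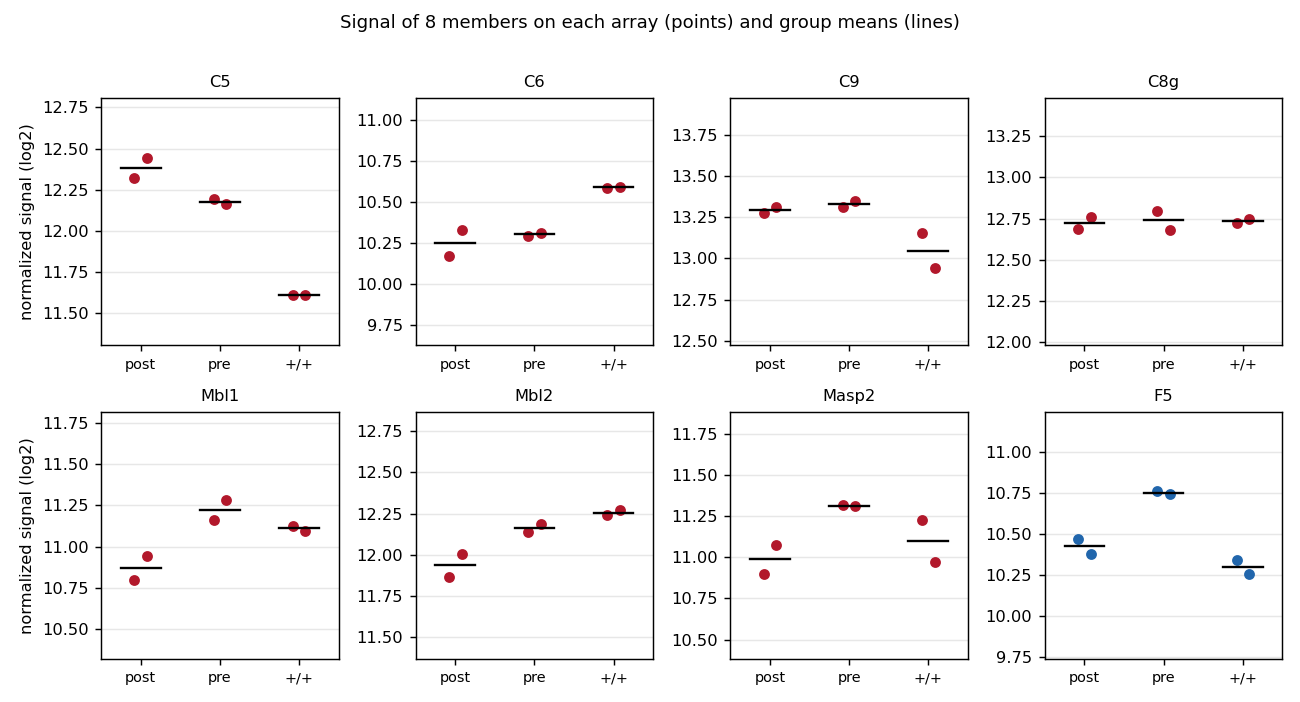
Normalized log2 signal of 8 members on each of the 6 arrays (points, 2 arrays a group) with the group means (lines), for post-hyperglycemia (post), pre-hyperglycemia (pre) and BBDR.+/+ (+/+) livers. Every panel spans the same log2 range; complement genes are red and the coagulation gene F5 is blue. C5 runs between 12.16 and 12.44 in both lyp/lyp groups and at 11.61 in BBDR.+/+ livers, C8g differs by at most 0.02 between group means, and F5 is highest on the 2 pre-hyperglycemia arrays.

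None of the other genes of the pore was called. C6 encodes the protein that binds C5b first. Its signal was 10.17 and 10.33 in post-hyperglycemia livers, 10.29 and 10.31 in pre-hyperglycemia livers, and 10.59 and 10.59 in BBDR.+/+ livers. Both lyp/lyp groups lay below BBDR.+/+ livers without overlap, the opposite order to C5. The differences were -0.34 post-hyperglycemia (limma adjusted p = 0.0967) and -0.29 pre-hyperglycemia (limma adjusted p = 0.306), and neither passed the test. C9 encodes the subunit that lines the pore. It had 13.27 and 13.31 in post-hyperglycemia livers, 13.31 and 13.35 in pre-hyperglycemia livers, and 13.15 and 12.94 in BBDR.+/+ livers. The BBDR.+/+ arrays lay below the other 4 but also far apart from each other, and the difference post-hyperglycemia was 0.25 (limma adjusted p = 0.246). C8a, C8b and C8g, the 3 chains of C8, differed by -0.01 to 0.08 post-hyperglycemia against BBDR.+/+ livers. For C8g the signal was 12.69 and 12.76 in post-hyperglycemia livers, 12.80 and 12.68 in pre-hyperglycemia livers, and 12.72 and 12.74 in BBDR.+/+ livers, which overlap throughout.

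The mannose-binding lectins, which recognise microbial sugars, had their lowest signals in post-hyperglycemia livers. Mbl1 had 10.80 and 10.94 in post-hyperglycemia livers, 11.16 and 11.28 in pre-hyperglycemia livers, and 11.13 and 11.10 in BBDR.+/+ livers. The post-hyperglycemia arrays lay below the other 4, by 0.35 against pre-hyperglycemia livers (difference -0.35, interval -0.59 to -0.12; limma adjusted p = 0.131) and by 0.24 against BBDR.+/+ livers (difference -0.24; limma adjusted p = 0.242). Mbl2 had 11.87 and 12.00 in post-hyperglycemia livers, 12.14 and 12.18 in pre-hyperglycemia livers, and 12.24 and 12.27 in BBDR.+/+ livers. Here too the post-hyperglycemia arrays were lowest, with differences of -0.23 against pre-hyperglycemia livers (limma adjusted p = 0.34) and -0.32 against BBDR.+/+ livers (limma adjusted p = 0.109). A dimmer Mbl2 probe set (1387528_at) had 9.65 and 9.78 in post-hyperglycemia livers, 10.06 and 10.16 in pre-hyperglycemia livers, and 10.05 and 10.10 in BBDR.+/+ livers. Its post-hyperglycemia arrays were lowest as well, with differences of -0.39 against pre-hyperglycemia livers (limma adjusted p = 0.0948) and -0.36 against BBDR.+/+ livers (limma adjusted p = 0.0804), while its other 2 groups overlapped. None of these passed the test. With an intensity trend in its variance model, limma called Mbl2 lower against BBDR.+/+ livers (limma adjusted p = 0.0116). It called Mbl1 lower against pre-hyperglycemia livers (limma adjusted p = 0.0225). That model called 6.80% and 3.33% of all genes in these comparisons. With the 3′ to 5′ covariate the difference of Mbl1 was -0.22 against pre-hyperglycemia and -0.08 against BBDR.+/+ livers. That of the brightest Mbl2 probe set was -0.05 and -0.12. The part of RNA quality in these values was not tested, and it cannot be told apart from the post-hyperglycemia group.

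The proteases that the lectins carry gave different answers from different probe sets. The Masp1 gene yields MASP-1, MASP-3 and a short inhibitor by alternative splicing, and which of them each probe set reads was not examined. Its brightest probe set (1390585_at) had 10.29 and 10.24 in post-hyperglycemia livers, 10.22 and 10.24 in pre-hyperglycemia livers, and 10.02 and 9.90 in BBDR.+/+ livers. The 4 lyp/lyp arrays lay above both BBDR.+/+ arrays, with differences of 0.31 post-hyperglycemia (limma adjusted p = 0.121) and 0.27 pre-hyperglycemia (limma adjusted p = 0.329), and neither passed the test. A second Masp1 probe set (1371116_at) had 6.78 and 7.01 in post-hyperglycemia livers, 7.48 and 7.51 in pre-hyperglycemia livers, and 7.26 and 7.28 in BBDR.+/+ livers. It was lowest post-hyperglycemia and was called lower than in pre-hyperglycemia livers (difference -0.60, interval -0.84 to -0.36; limma adjusted p = 0.0213), where 2.18% of all probe sets were called. The call was lost without pre-hyperglycemia array 1 (-0.61) or 2 (-0.58), or without post-hyperglycemia array 1 (-0.49). The third Masp1 probe set differed by 0.10 in the same comparison. Masp2 encodes the main protease that cuts C4 and C2 in this route, and a short splice form as well. Its brightest probe set (1371025_at) had 10.90 and 11.07 in post-hyperglycemia livers, 11.32 and 11.31 in pre-hyperglycemia livers, and 11.23 and 10.97 in BBDR.+/+ livers. The 3 Masp2 probe sets differed by -0.33, -0.45 and 0.20 post-hyperglycemia against pre-hyperglycemia livers, and 0 of them passed the test (lowest limma adjusted p = 0.117). With the 3′ to 5′ covariate the second Masp1 probe set differed by -0.43 in this comparison (limma adjusted p = 0.839). The brightest Masp2 probe set differed by -0.75 with it.

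**Figure D2:**
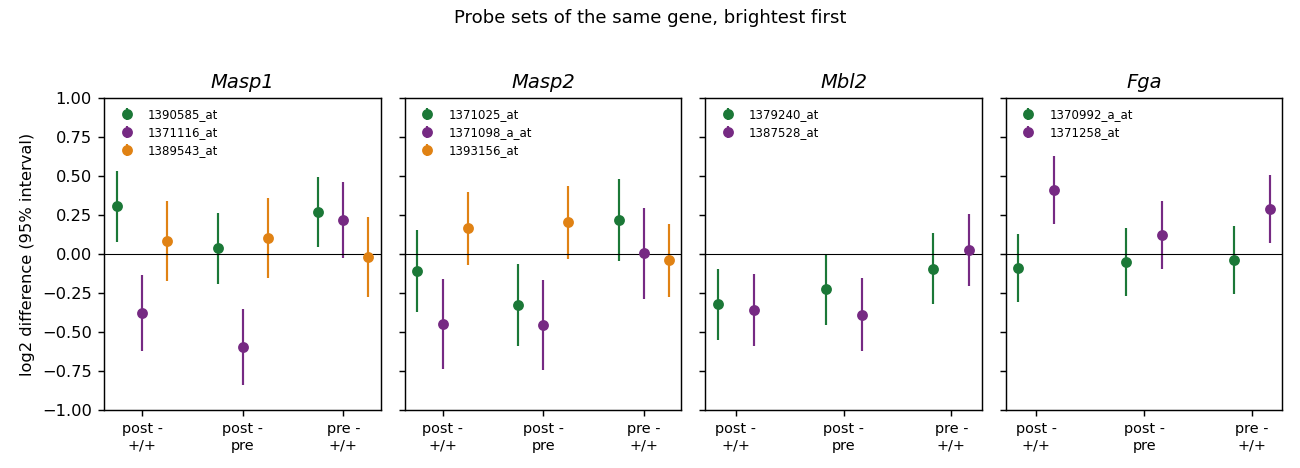
Log2 difference (points) and 95% interval (bars) of each probe set of Masp1, Masp2, Mbl2 and Fga, brightest first, for post-hyperglycemia minus BBDR.+/+, post-hyperglycemia minus pre-hyperglycemia and pre-hyperglycemia minus BBDR.+/+. The 2 Mbl2 probe sets lie together, while those of Masp1, Masp2 and Fga lie on both sides of 0 in post-hyperglycemia against BBDR.+/+ livers.

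C1r and C1s, the neighbouring genes of the starter proteases of the classical route, differed by 0.01 and 0.23 post-hyperglycemia against BBDR.+/+ livers (limma adjusted p = 0.974 and 0.288). C3, the hub of all routes, had 14.16 and 14.16 in post-hyperglycemia livers, 14.15 and 14.18 in pre-hyperglycemia livers, and 14.12 and 14.16 in BBDR.+/+ livers. The 3 groups overlapped, and the interval of the difference between post-hyperglycemia and BBDR.+/+ livers ran from -0.20 to 0.24. Cfd, the protease of the alternative route that fat tissue secretes, had 8.02 and 8.18 in post-hyperglycemia livers, 7.88 and 7.96 in pre-hyperglycemia livers, and 7.81 and 7.82 in BBDR.+/+ livers, in that order without overlap (difference of post-hyperglycemia and BBDR.+/+ 0.29; limma adjusted p = 0.155). Of the complement inhibitors, C4bpa and C4bpb, the chains of C4b-binding protein, each differed by 0.20 post-hyperglycemia against BBDR.+/+ livers (limma adjusted p = 0.306 and 0.307). Cfi, which cuts C3b and C4b, had 13.34 and 13.31 in post-hyperglycemia livers, 13.32 and 13.34 in pre-hyperglycemia livers, and 13.31 and 13.23 in BBDR.+/+ livers, a difference of 0.05 post-hyperglycemia against BBDR.+/+. Serping1, the inhibitor of C1 and of plasma kallikrein, differed by -0.04, and Vtn, which blocks the pore and steadies plasminogen activator inhibitor, by 0.09.

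None of the coagulation and fibrinolysis genes was called by its brightest probe set. The fibrinogen chains Fga, Fgb and Fgg had brightest probe sets at 13.56 to 13.95 on all 6 arrays. Fga had 13.75 and 13.77 in post-hyperglycemia livers, 13.83 and 13.80 in pre-hyperglycemia livers, and 13.82 and 13.88 in BBDR.+/+ livers. Fgg had 13.93 and 13.92 in post-hyperglycemia livers, 13.95 and 13.86 in pre-hyperglycemia livers, and 13.95 and 13.91 in BBDR.+/+ livers, which overlap. Against BBDR.+/+ livers the 3 chains differed by -0.09, -0.09 and 0.00 post-hyperglycemia, and their intervals ran from -0.31 at the lowest to 0.22 at the highest. A second Fga probe set (1371258_at) had 12.25 and 12.25 in post-hyperglycemia livers, 12.14 and 12.13 in pre-hyperglycemia livers, and 11.87 and 11.82 in BBDR.+/+ livers. It was called higher post-hyperglycemia than in BBDR.+/+ livers (0.41, interval 0.19 to 0.63; limma adjusted p = 0.0388), where 5.15% of all probe sets were called. That call was lost whichever 1 of the 6 arrays was left out, at 0.39 to 0.44, and the brighter Fga probe set had a difference of -0.09. The pre-hyperglycemia arrays are not part of this comparison, and without either the difference of the second probe set stayed at 0.41.

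F5 encodes factor V, the cofactor that speeds thrombin formation. It had 10.47 and 10.38 in post-hyperglycemia livers, 10.76 and 10.74 in pre-hyperglycemia livers, and 10.34 and 10.25 in BBDR.+/+ livers. The pre-hyperglycemia arrays stood above the other 4. The difference was -0.33 post- against pre-hyperglycemia (limma adjusted p = 0.146) and 0.45 pre-hyperglycemia against BBDR.+/+ (interval 0.23 to 0.68; limma adjusted p = 0.0855). The second passed with the dim probe sets left out (limma adjusted p = 0.0463). It passed in 3 of 15 limma alternatives, over which the adjusted p ran from 0.00913 to 0.478. The proteases F2 (prothrombin), F9, F10, F12 and Klkb1 (plasma kallikrein) differed by -0.07 to 0.14 post-hyperglycemia against BBDR.+/+ livers. F12, which starts the contact route, had 12.91 and 13.08 in pre-hyperglycemia livers, and the arrays of the other 2 groups lay between these values. F8, whose protein is mainly of endothelial origin, and F3, tissue factor, were dim here, at 6.16 to 6.47 and 4.13 to 4.48. F13a1, a subunit made by macrophages and megakaryocytes, was dim as well, at 5.03 to 5.42.

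The natural anticoagulants, which hold thrombin and its cofactors in check, had small differences. Serpinc1, antithrombin, had 13.67 and 13.62 in post-hyperglycemia livers, 13.64 and 13.63 in pre-hyperglycemia livers, and 13.59 and 13.67 in BBDR.+/+ livers, a difference of 0.01 against BBDR.+/+ livers with an interval of -0.21 to 0.24. Serpind1, heparin cofactor II, had 12.97 and 12.92 in post-hyperglycemia livers, 13.12 and 13.12 in pre-hyperglycemia livers, and 13.10 and 13.13 in BBDR.+/+ livers, lowest post-hyperglycemia (-0.17 against either group; limma adjusted p = 0.389 and 0.471). Proc differed by 0.07 and Pros1 by -0.17 post-hyperglycemia against BBDR.+/+ livers. In fibrinolysis, Plg, the precursor of plasmin, had 13.66 and 13.65 in post-hyperglycemia livers, 13.63 and 13.74 in pre-hyperglycemia livers, and 13.62 and 13.69 in BBDR.+/+ livers. Its difference post-hyperglycemia against BBDR.+/+ was 0.00 (interval -0.22 to 0.23). Serpinf2, the inhibitor of plasmin, differed by 0.26 (limma adjusted p = 0.201), Plat, an activator, by 0.21 and Cpb2, which slows clot lysis, by -0.08. Of the 20 coagulation and fibrinolysis genes, 20 had an interval within 0.5 of 0 post-hyperglycemia against BBDR.+/+ livers, and 19 in each other comparison. Of the 17 complement genes 12 did post-hyperglycemia against BBDR.+/+, 15 post- against pre-hyperglycemia and 14 pre-hyperglycemia against BBDR.+/+, and of all genes 78.3%, 83.8% and 85.1%. Whether signals as high as those of many members compress differences on this array was not tested.

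**Figure D3:**
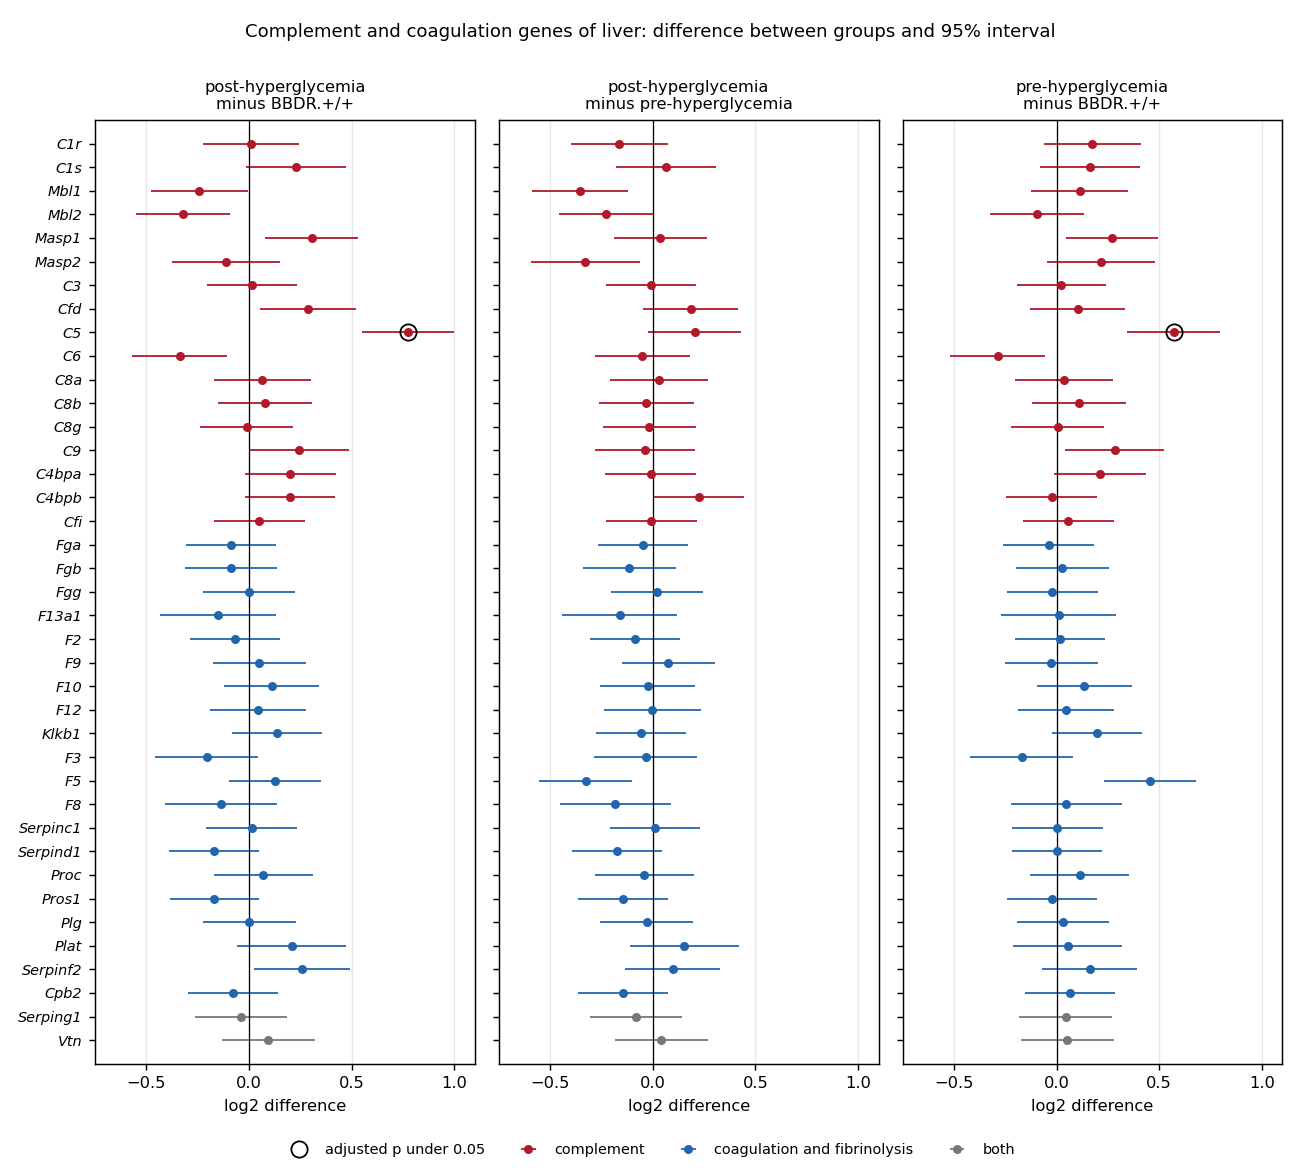
Log2 difference (points) with its 95% interval (bars) for the 39 members in each comparison, by complement (red), coagulation and fibrinolysis (blue) and both (grey). Circles mark a limma adjusted p under 0.05, which C5 alone has, against BBDR.+/+ livers in both lyp/lyp groups.

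Complement and coagulation genes were then set side by side. Post-hyperglycemia against BBDR.+/+, the median size of the difference, sign aside, was 0.20 for the 17 complement genes, 0.10 for the 20 coagulation and fibrinolysis genes and 0.12 for all genes. Post- against pre-hyperglycemia it was 0.05, 0.08 and 0.11. Pre-hyperglycemia against BBDR.+/+ it was 0.11, 0.04 and 0.10. Signed medians were small, at 0.07, 0.00 and 0.04 post-hyperglycemia against BBDR.+/+, at -0.01, -0.05 and 0.01 post- against pre-hyperglycemia, and at 0.11, 0.03 and 0.02 pre-hyperglycemia against BBDR.+/+, for complement, coagulation and all genes. Post-hyperglycemia against BBDR.+/+, 12 of 17 complement, 10 of 20 coagulation and 8424 of all 14217 genes had a positive difference. Post- against pre-hyperglycemia it was 6 of 17, 5 of 20 and 7598 of 14217, and pre-hyperglycemia against BBDR.+/+ 14 of 17, 15 of 20 and 8008 of 14217. The comparisons share arrays and are not independent of each other, and these values describe the lists without a test.

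**Figure D4:**
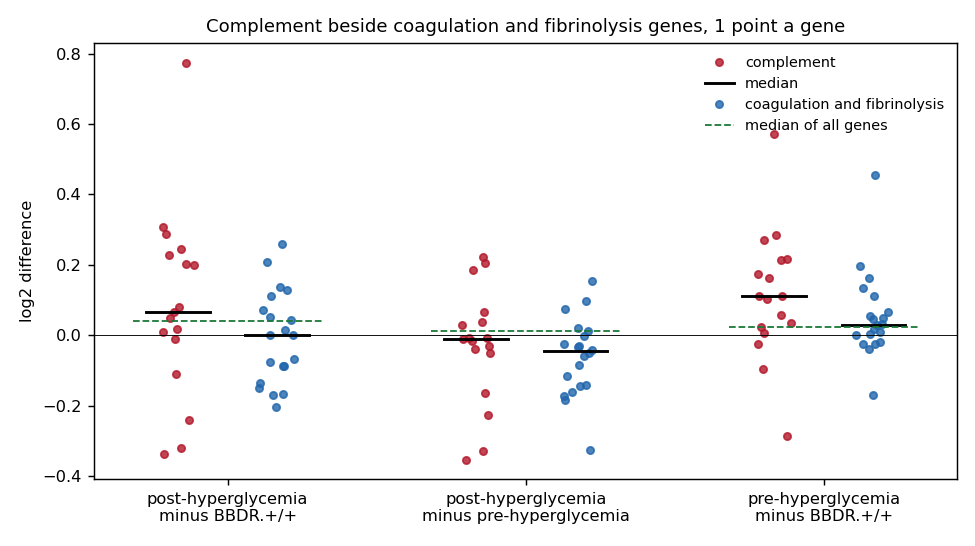
Log2 difference of each complement gene (red, 17 genes) and each coagulation and fibrinolysis gene (blue, 20 genes) in the 3 comparisons, with the median of each list (black line) and of all genes (dashed green line). The complement points spread from -0.34 to 0.77 post-hyperglycemia against BBDR.+/+ livers, the coagulation points from -0.20 to 0.26.

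Arrays of the compared groups did not overlap for 24 of 39 members post-hyperglycemia against BBDR.+/+ livers, 14 higher and 10 lower, where 50.7% of all genes did not overlap, 32.4% higher and 18.3% lower. Post- against pre-hyperglycemia it was 19 of 39, 5 higher and 14 lower, where 46.1% of all genes did not overlap, 25.6% higher and 20.5% lower. Pre-hyperglycemia against BBDR.+/+ it was 23 of 39, 19 higher and 4 lower, where 46.1% did not overlap, 28.3% higher and 17.7% lower. By list, complement and then coagulation and fibrinolysis had 10 of 17 and 13 of 20 without overlap post-hyperglycemia against BBDR.+/+ livers, 7 of 17 and 11 of 20 post- against pre-hyperglycemia, and 15 of 17 and 7 of 20 pre-hyperglycemia against BBDR.+/+ livers. The 28 members at 12 or above had a median difference in size of 0.08 post-hyperglycemia against BBDR.+/+ livers, 0.0453 post- against pre-hyperglycemia and 0.0492 pre-hyperglycemia against BBDR.+/+, and all 319 genes at that level 0.08, 0.0794 and 0.0609. The 11 members under it had 0.20, 0.16 and 0.11, and all 13898 genes under it 0.13, 0.11 and 0.10.

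Other genes of the 2 systems were read from separate lists. Of 18 further complement genes measured, 1 was called higher and 0 lower post-hyperglycemia against BBDR.+/+ livers, where 3.52% of all genes were called. It was C1qa, a chain of the C1q recognition protein that macrophages make and a Kupffer cell marker here as well. C1qa had 11.23 and 11.23 in post-hyperglycemia livers, 11.17 and 11.21 in pre-hyperglycemia livers, and 10.80 and 10.85 in BBDR.+/+ livers (0.40; limma adjusted p = 0.0442), and the call was lost whichever 1 of the 6 arrays was left out, at 0.38 to 0.43. The other comparisons called 0 of the 18, where the limma p was under 0.05 without adjustment for 1 gene post- against pre-hyperglycemia (13.4% of all genes) and for 5 pre-hyperglycemia against BBDR.+/+ (12.2% of all genes).

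Of 21 further coagulation and fibrinolysis genes, A2m was the only one called, in comparisons that called 1.37% and 0.802% of all genes. A2m encodes α2-macroglobulin, which traps proteases, thrombin and plasmin among them. It had 7.42 and 7.43 in post-hyperglycemia livers, 7.94 and 8.09 in pre-hyperglycemia livers, and 7.31 and 7.16 in BBDR.+/+ livers. The pre-hyperglycemia arrays stood above the other 4. Of the stellate cell markers, 2 of 6 were called lower post- against pre-hyperglycemia, Col1a1 (-0.51, limma adjusted p = 0.031) and Col1a2 (-0.62, limma adjusted p = 0.0293), calls lost without 6 and 5 of the 6 arrays, and of 4 erythroid markers 0 were, with 3 at a limma p under 0.05 before adjustment. Such a p before adjustment was found for 13.4% of all genes post- against pre-hyperglycemia. In that comparison 5 of the 6 stellate cell markers had a negative difference, and Des a positive one (0.18). Over the whole lists, stellate cell markers averaged 7.12 to 7.33 on post-hyperglycemia arrays, 7.49 on both pre-hyperglycemia arrays and 7.28 to 7.30 on BBDR.+/+ arrays. Erythroid markers averaged 8.14 to 8.22 on post-hyperglycemia arrays, 8.51 to 8.60 on pre-hyperglycemia arrays and 8.17 on both BBDR.+/+ arrays. The part of these cells in the A2m and F5 values was not tested. For A2m the difference was -0.59 post- against pre-hyperglycemia (limma adjusted p = 0.021) and 0.78 pre-hyperglycemia against BBDR.+/+ (limma adjusted p = 0.00966). Post-hyperglycemia against BBDR.+/+, limma called 0 of the 21, of which 5 had a p under 0.05 without adjustment, where 18.9% of all genes did. The first A2m call was lost without pre-hyperglycemia array 2 (-0.52) or either post-hyperglycemia array (-0.58 and -0.59), and the second without pre-hyperglycemia array 2 (0.71) or either BBDR.+/+ array (0.85 and 0.71).

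Of 18 measured regulators of these genes, receptors and transcription factors of the acute phase and of hepatocytes, 3 rose and 1 fell post-hyperglycemia against BBDR.+/+ livers by the brightest probe set, where 3.52% of all genes were called. Il1r1, the interleukin-1 receptor, rose by 0.62 (limma adjusted p = 0.00942), Stat3 by 0.60 (limma adjusted p = 0.0206) and Cebpd by 0.55 (limma adjusted p = 0.0286), while Onecut1, a hepatocyte factor, fell by 0.63 (limma adjusted p = 0.00709). With each gene as its probe set average the first 3 were no longer called, at 0.16 for Il1r1 (limma adjusted p = 0.311), 0.15 for Stat3 (limma adjusted p = 0.445) and 0.19 for Cebpd (limma adjusted p = 0.298). Onecut1 was still called lower, at -0.94 (limma adjusted p = 0.00109). With the 3′ to 5′ covariate Cebpd was 0.02 (limma adjusted p = 0.997) and Stat3 1.01 (limma adjusted p = 0.727). Il1r1 was 0.48 with it (limma adjusted p = 0.852) and Onecut1 -0.78 (limma adjusted p = 0.753). Each of the 4 calls was lost without 2 to 4 of the 6 arrays, either BBDR.+/+ array among them, at 0.53 to 0.72 for Il1r1, 0.44 to 0.77 for Stat3, 0.52 to 0.58 for Cebpd and -0.68 to -0.57 for Onecut1. The brightest fibrinogen probe sets differed by -0.09 (Fga), -0.09 (Fgb) and 0.00 (Fgg) in this comparison, and the second Fga probe set was called higher at 0.41. Post- against pre-hyperglycemia, where 1.37% of all genes were called, 1 regulator was called higher and 2 lower. Prox1, a hepatocyte factor, had a difference of 0.53 (limma adjusted p = 0.0252) and of 0.31 as its probe set average (limma adjusted p = 0.136). Foxa3 had -0.97 (limma adjusted p = 0.0118), and Nr0b2, a nuclear receptor that curbs bile acid synthesis, had -0.60 (limma adjusted p = 0.0282). With the 3′ to 5′ covariate Foxa3 turned to 0.10 (limma adjusted p = 0.976) and Nr0b2 was -0.11 (limma adjusted p = 0.968). RNA quality and the post-hyperglycemia group cannot be told apart in these values. Pre-hyperglycemia against BBDR.+/+ livers, where 0.802% of all genes were called, Nr0b2 was called higher (0.71; limma adjusted p = 0.0267). Each of these calls was lost without 2 to 6 of the 6 arrays, at 0.48 to 0.59 for Prox1, -1.21 to -0.74 for Foxa3, and -0.72 to -0.49 and 0.63 to 0.79 for the 2 calls of Nr0b2. As its probe set average, Onecut1 was called lower post- against pre-hyperglycemia (-0.47; limma adjusted p = 0.0272). The same average was called lower pre-hyperglycemia against BBDR.+/+ (-0.47; limma adjusted p = 0.0303).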

How the data were processed

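Each sample was liver RNA, isolated with Trizol and read on 1 Affymetrix RG230 2.0 array after amplification and labelling. The amplification kit and the feeding before sampling are given differently in the labels and the methods. The authors used Affymetrix Expression Console to read the images and Partek Genomic Suite to normalize (versions and algorithm not given in the sources used here), and the deposited values are log2 signals, 1 per probe set and array. With 2 arrays a group, the number of arrays limits the precision. Of 31099 probe sets, 57 controls were set aside.

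limma 3.58.1 (R 4.3.3) was fitted to all 6 arrays with 1 mean per group (3 residual and 7.7 prior degrees of freedom), with Benjamini-Hochberg adjustment over 31042 probe sets. Its script was tested on simulated data. Rank product (100 permutations, false discovery rate under 0.2), other normalizations, filters and variance models, the methods' t-test, a 3′ to 5′ covariate and leaving out each array were alternatives. Leaving out any array also lowers the residual degrees of freedom of every comparison. A call can therefore be lost without an array that is not part of its comparison. Leaving Tat out of the hepatocyte marker mean, and single arrays out of the tests of stellate and erythroid markers, was added after seeing the data. Members, gene lists, motifs and the rule for named genes (members with a called probe set, and those with the largest and smallest differences in size per comparison) were chosen with earlier results of these data known. Entrez identifiers and symbols of 39 of 39 members matched a current RefSeq table, and 29 had a promoter there. Figures were drawn with Python 3.11.15 and matplotlib 3.10.9.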

Additional observations from a re-analysis of the deposited data

How the results depend on the processing

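C5 post-hyperglycemia against BBDR.+/+ livers was called in all alternatives but the methods' t-test and the 3′ to 5′ covariate, which left 0 members called there and 0 pre-hyperglycemia against BBDR.+/+. Of all probe sets, the covariate fit called 0 in the first comparison and 115 in the second. Apart from the covariate, the intensity trend and rank product, the share of all genes called was not counted for these alternatives. The count of members called pre-hyperglycemia against BBDR.+/+ was also 0 with quantile normalization (C5 0.52, limma adjusted p = 0.0529) and with centring on ribosomal protein probe sets (C5 0.52, limma adjusted p = 0.0611), and it was 2, C5 and F5, with the top 60% of probe sets by mean and with each gene as its probe set average. With an intensity trend limma called 6 members post-hyperglycemia against BBDR.+/+ (C5, C6, C9, Masp1, Mbl2 and Serpinf2), 2 post- against pre-hyperglycemia (F5 and Mbl1) and 2 pre-hyperglycemia against BBDR.+/+ (C5 and F5), where 6.80%, 3.33% and 1.92% of all genes were called. Leaving out 1 array gave 1 call, 0 calls and 0 to 1 in these comparisons. The median of complement genes post-hyperglycemia against BBDR.+/+ was 0.0860 with median centring and 0.10 with quantile normalization, and 0.0334 to 0.0901 without 1 array. Pre-hyperglycemia against BBDR.+/+ it was 0.13 with median centring, 0.0647 with quantile normalization, 0.0603 with ribosomal centring, 0.13 with the covariate, and 0.0646 to 0.11 without 1 array. Post- against pre-hyperglycemia it was 0.0300 with ribosomal centring and -0.0182 to -0.0059 without 1 array. The median of coagulation genes was -0.13 with the covariate and -0.0127 to 0.0065 without 1 array post-hyperglycemia against BBDR.+/+, -0.18 with the covariate, -0.0046 with ribosomal centring and -0.0924 to -0.0217 without 1 array post- against pre-hyperglycemia, and -0.0200 with ribosomal centring and 0.0033 to 0.0389 without 1 array pre-hyperglycemia against BBDR.+/+. Foxa3 post- against pre-hyperglycemia was 0.10 with the covariate. The cause of these shifts was not tested. With the replicate block the counts of members called were 1, 0 and 1, and the block changed no member call (C5 limma adjusted p = 0.00144 post- and 0.0268 pre-hyperglycemia against BBDR.+/+). Of the other named genes, Foxa3 post-hyperglycemia against BBDR.+/+ (-0.53) had a limma adjusted p of 0.0178 with the replicate block and of 0.0805 without it, which would make 2 regulators lower there. Same-numbered arrays had deviations that correlated at 0.11 to 0.26, but with 2 numbers a group the numbers do not establish a pairing. Dim members such as F3, F8 and F13a1 can show little of a change at this signal.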
